A study of Mus musculus with 6 samples.

Results

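H19, Meg3, Rian, Mirg, Grb10, Dlk1, Peg3, Plagl1, Mest and Ndn are imprinted genes, each known for expression mainly from the allele of 1 parent and for a part in growth or development. A locus of the deposited tables was taken as a member where 1 of its gene names was 1 of these 10 symbols, and all 10 were found among the 51997 named loci used. All 10 also passed the filter on low counts, which left 16787 loci for the test. Total RNA had been sequenced from fibroblasts that had been cultured from mouse embryos, in 3 libraries labelled Fbxw7 knockout (KO) and 3 libraries labelled wild type (WT). The protein FBXW7 picks the substrates of a ubiquitin ligase complex, and the series was made to find expression profiles related to it. Both groups grew in DMEM with 15% serum and non-essential amino acids, and the libraries were made with the TruSeq protocol. The labels gave no strain, embryo, sex, passage or Fbxw7 allele for either genotype and did not name any separate culture for the libraries of 1 genotype, so p-values measure only the spread between these libraries, which may be technical.

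Imprinting is set in the germ line: DNA methylation placed in an egg or a sperm marks 1 parental copy of a control region, and that mark is then kept in the cells of the embryo while the rest of the genome is reprogrammed. Imprinted genes often lie in domains, where a maternally expressed noncoding RNA and a paternally expressed coding gene share 1 control region, as H19 does with Igf2 and Meg3 does with Dlk1. Many paternally expressed genes are known to favour growth and many maternally expressed ones to restrain it. The files do not separate alleles, so the class of each gene below is textbook background and every value is a total over both copies. H19, Meg3, Rian, Mirg and Grb10 form the maternally expressed class, Grb10 with the known exception of neurons, and Dlk1, Peg3, Plagl1, Mest and Ndn form the paternally expressed class. In bulk RNA, fewer expressing cells and less RNA per cell cannot be told apart.

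Several properties of the libraries bear on every value below. The deposited totals were 55720129 to 60402238 estimated fragments in KO libraries and 62551369 to 64198455 in WT libraries. Distances between libraries were taken as squared differences in fragments relative to those of sampling noise, as a median over genes. Replicates 1 and 2 of a genotype were most alike, at 6.43 in KO and 7.14 in WT. The third library stood at 32.3 and 44.4 from them in KO and at 25.5 and 27.9 in WT. A KO library stood at 40.8 to 65.8 from a WT library, so KO replicates 2 and 3 lay as far apart as some KO and WT libraries. Fbxw7 itself read 27.6, 27.4 and 24.1 CPM (fragments relative to the TMM-adjusted library size) in KO libraries, against 29.5, 28.4 and 30.1 CPM in WT libraries (log2 fold change -0.16 ± 0.10, SE; edgeR adjusted p = 0.332), so its total level does not check the labels, and no source used here gives the deleted part. Sex-linked transcripts differed between the genotypes: Xist, the RNA that coats an inactive X chromosome, averaged 911 ± 126 CPM in KO and 1.47 ± 1.09 CPM in WT (SD, n = 3 each), and the Y-linked Ddx3y averaged 30.4 ± 6.01 CPM in KO and 95.9 ± 13.8 CPM in WT. The part of sex, embryo of origin and culture history in the results was not tested.

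Fibroblast markers were abundant in both genotypes, with 8 of 8 tested and a summed level of 23082 to 25229 CPM in KO and 23444 to 31661 CPM in WT. Of these, Dcn, a collagen-binding proteoglycan gene, rose (1.56 ± 0.36, SE; adjusted p = 0.0252), Vim, an intermediate filament gene, fell (-0.83 ± 0.15; adjusted p = 0.00972), and the collagen gene Col1a2 stood at -0.21 ± 0.17. Markers of other cell types were low but not alike between genotypes. Of 8 muscle lineage markers 2 were tested and Pax3 rose (1.87 ± 0.51), while the other tested one did not pass. The summed level was 28.2 to 35.2 CPM in KO and 4.57 to 17.9 CPM in WT. Pax3 made up most of that sum in every library. The other 7, Des among them, stayed under 1 CPM in all 6 libraries, and the defining Myod1 and Myf5 were at 0. Of 4 endothelial markers 2 were tested and both fell, Kdr (-2.99 ± 0.39) and Tek (-2.45 ± 0.55), with sums of 0.614 to 1.42 CPM in KO and 6.46 to 9.24 CPM in WT, and Pecam1 and Cdh5 stayed under 1 CPM. Of 3 hepatoblast markers, Alb rose (5.26 ± 0.62), with sums of 6.44 to 15.5 CPM in KO and 0.0654 to 0.42 CPM in WT, Ttr was at 0 and Afp under 1 CPM. Of 5 blood markers Cd68 fell (-1.40 ± 0.34), with sums of 0.341 to 0.618 CPM in KO and 0.929 to 1.68 CPM in WT. Hbb-bs was at 0, and Hba-a1 and Ptprc stayed under 1 CPM. Of 4 measured nerve and neural crest markers 3 were tested, with 2 fold changes below 0 and 1 above 0. Stmn2 alone passed and fell (-3.49 ± 0.59), and Sox10 stayed under 1 CPM. The nerve and neural crest sums were 1.73 to 2.94 CPM in KO and 2.81 to 4.18 CPM in WT. The 6 epithelial markers summed to 0.101 to 0.154 CPM in KO and 0.229 to 0.454 CPM in WT with Krt8 and Krt14 at 0 and Epcam and Krt18 under 1 CPM, and the 5 trophoblast and germ cell markers, with Cdx2 at 0 and Dazl under 1 CPM, summed to 0.135 to 2.41 CPM in KO, where Ddx4 in replicate 3 made up most of the highest sum, and to 0.282 to 0.336 CPM in WT. The part of cells that carry these markers in the results was not tested.

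H19 was the member that rose in KO cells, and Dlk1, Grb10 and Ndn fell. These 4 of 10 compare with 16.1% of all tested loci past the same threshold, an edgeR Benjamini-Hochberg adjusted p under 0.05, in either direction, 8.03% higher and 8.08% lower. By unadjusted p under 0.05, 6 members passed, Peg3 and Plagl1 being the other two, against 31.6% of all tested loci. The log2 fold change was below 0 for 8 of 10 members, with a median of -0.42, against 49.2% of all tested loci below 0 and a median of 0.007. KO and WT libraries did not overlap for 5 members, 1 higher and 4 lower in KO, where 37.7% of all tested loci did not overlap, 19.2% higher and 18.4% lower.

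**Figure D1:**
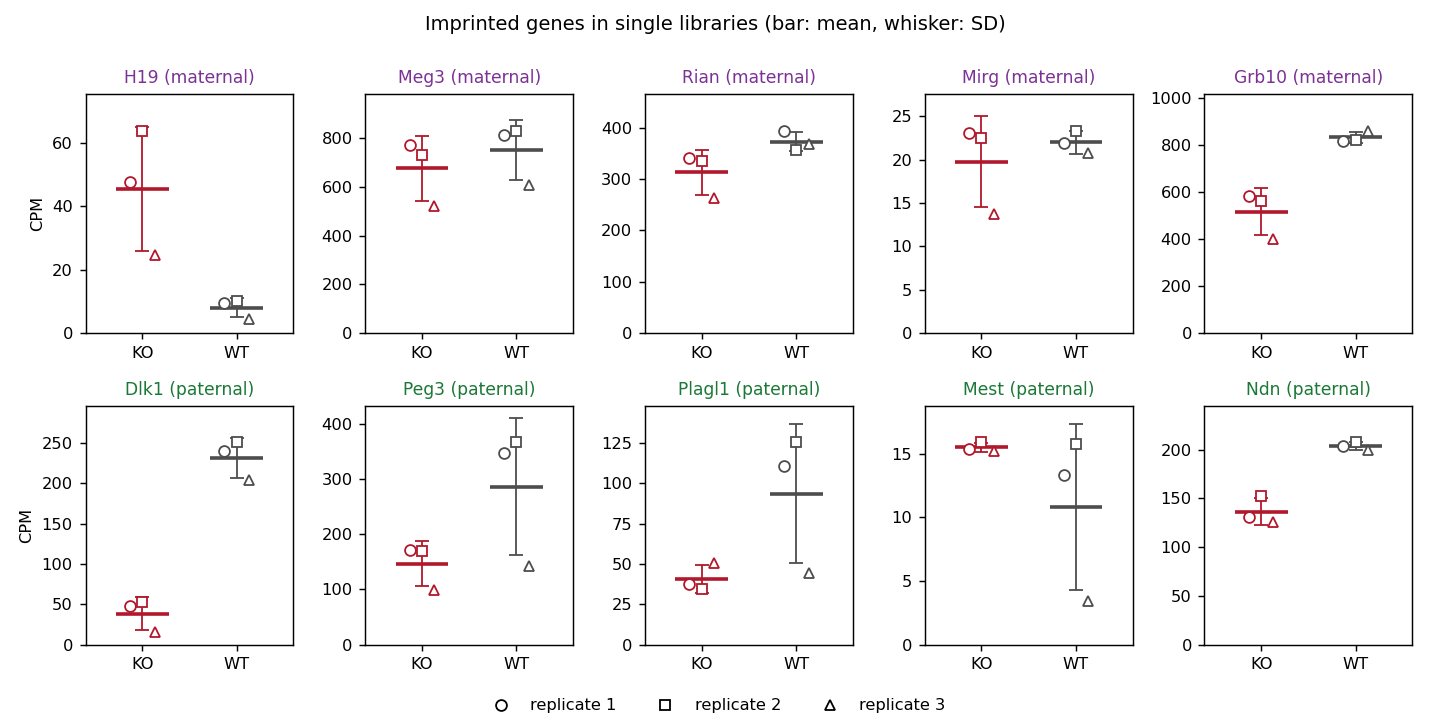
Level of each of the 10 genes in CPM (linear axis from 0) in single libraries, KO left of WT, with a bar at the mean and a whisker of 1 SD (n = 3 each). H19 stands higher in all KO libraries, and Dlk1, Rian, Grb10 and Ndn stand lower in all KO libraries; the triangle of replicate 3 lies apart for H19, Dlk1, Peg3, Plagl1 and Mest in 1 or both genotypes.

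Levels per transcript length placed the noncoding Meg3 at the top in both genotypes. In KO libraries the order by mean FPKM (the authors' unit, which corrects for transcript length and for sequencing depth) was Meg3 at 257 ± 54.7, Rian at 119 ± 19.3, Grb10 at 96.8 ± 18.6, Ndn at 35.1 ± 4.02, Dlk1 at 25.8 ± 13.8, H19 at 21.7 ± 9.17, Mirg at 20.8 ± 6.40, Peg3 at 15.7 ± 4.45, Plagl1 at 11.97 ± 2.55 and Mest at 6.01 ± 0.189 (SD, n = 3). In WT libraries it was Meg3 at 291 ± 49.5, Dlk1 at 162 ± 16.6, Grb10 at 160 ± 6.91, Rian at 145 ± 7.74, Ndn at 54.0 ± 1.05, Peg3 at 31.5 ± 13.4, Plagl1 at 26.6 ± 13.8, Mirg at 24.1 ± 1.504, Mest at 4.41 ± 2.69 and H19 at 3.82 ± 1.32 (SD, n = 3). Dlk1 thus stood at rank 5 of the members in KO and rank 2 in WT, and H19 at rank 6 in KO and rank 10 in WT. In KO, Rian and Grb10 overlapped in range, each gene from Ndn to Plagl1 overlapped its neighbour in the order, and Mest, at 5.89 to 6.23 FPKM, lay below all others. In WT, Dlk1 overlapped both Grb10 and Rian, which did not overlap each other, Ndn stood alone at 53.2 to 55.2 FPKM, Peg3, Plagl1 and Mirg overlapped, and so did Mest and H19. Values per length are less certain at H19, Meg3, Rian and Mirg, whose loci also hold names of small RNA genes.

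Dlk1 encodes a transmembrane ligand-like protein related to the Notch ligands, known for holding preadipocytes and other progenitors undifferentiated, and is the paternally expressed coding gene of the distal chromosome 12 domain. It lies at chromosome 12, 109452823 to 109463336 on the plus strand (mm10, protein coding, ENSMUSG00000040856.17). Dlk1 read 47.9, 52.6 and 15.0 CPM in KO libraries, against 240, 252 and 204 CPM in WT libraries. Every KO library was below every WT library, and KO replicate 3 was the lowest of all. The KO mean of 38.5 ± 20.5 CPM was 16.6% of the WT mean of 232 ± 24.6 CPM (SD, n = 3 each), a log2 fold change of -2.59 ± 0.42 (SE; 95% interval -3.56 to -1.63; edgeR adjusted p = 0.00638). At least 877 fragments lay behind each value. With replicate 3 of both genotypes left out the log2 fold change was -2.29 ± 0.08, and with no count filter the adjusted p was 0.0706.

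Meg3, Rian and Mirg are the maternally expressed noncoding RNAs of the same domain, which follow Dlk1 on the same strand, and Meg3 is known as a growth-restraining long noncoding RNA. Meg3 (chromosome 12, 109541001 to 109571726, lincRNA, ENSMUSG00000021268.17) read 772, 731 and 522 CPM in KO libraries, against 812, 829 and 608 CPM in WT libraries, and the groups overlapped. Its log2 fold change was -0.15 ± 0.18 (SE; 95% interval -0.58 to 0.27; adjusted p = 0.622), an interval that does not reach the size of the Dlk1 change. Rian (109603940 to 109661716, plus strand, ENSMUSG00000097451.10), which carries small nucleolar RNAs, read 341, 335 and 263 CPM in KO libraries, against 394, 357 and 368 CPM in WT libraries. All KO libraries were below all WT libraries for Rian, yet the log2 fold change of -0.25 ± 0.12 (95% interval -0.54 to 0.03; adjusted p = 0.208) did not pass. Mirg (109729764 to 109749460, plus strand, ENSMUSG00000097391.8), a host of many microRNAs, read 23.1, 22.5 and 13.8 CPM in KO libraries, against 21.9, 23.3 and 20.7 CPM in WT libraries. KO replicates 1 and 2 lay among the WT values and KO replicate 3 lay below them (log2 fold change -0.15 ± 0.20; 95% interval -0.61 to 0.30; adjusted p = 0.642). Without KO replicate 3 the value for Mirg was 0.05. Meg3 and Mirg overlap genes on the opposite strand (Gm26906 and Gm24321), and no source used here says whether the counting used strand.

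The balance between Dlk1 and the noncoding RNAs of its domain differed between the genotypes in every library. Dlk1 fragments were 6.20, 7.195 and 2.87% of Meg3 fragments in KO libraries, against 29.5, 30.3 and 33.6% in WT libraries. Set against Rian, Dlk1 came to 14.0, 15.7 and 5.69% in KO libraries, against 60.9, 70.5 and 55.5% in WT libraries. The noncoding RNAs kept closer proportions to each other: Rian was 44.2, 45.9 and 50.4% of Meg3 in KO libraries, against 48.5, 43.0 and 60.6% in WT libraries, and Mirg was 2.99, 3.08 and 2.64% of Meg3 in KO libraries, against 2.70, 2.81 and 3.41% in WT libraries. These shares compare libraries with each other and are not levels per length. The groups overlapped for the shares of Rian and Mirg and did not overlap for those of Dlk1; the differences between members were not tested.

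Because Dlk1 and Meg3 are the coding and noncoding heads of 1 domain and only Dlk1 passed the threshold there among the members, the 250 bases upstream of their starts are shown from the RefSeq promoter table (GRCm38.p6, plus strand, chr12:109452573-109452822 and chr12:109540746-109540995), with every CG in capitals, the dinucleotide at which DNA methylation is placed.
Dlk1: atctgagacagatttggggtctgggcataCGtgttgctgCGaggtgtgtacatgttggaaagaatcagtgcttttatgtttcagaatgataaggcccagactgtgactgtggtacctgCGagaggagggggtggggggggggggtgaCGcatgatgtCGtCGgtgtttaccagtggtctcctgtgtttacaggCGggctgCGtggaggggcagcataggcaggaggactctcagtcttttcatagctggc
Meg3: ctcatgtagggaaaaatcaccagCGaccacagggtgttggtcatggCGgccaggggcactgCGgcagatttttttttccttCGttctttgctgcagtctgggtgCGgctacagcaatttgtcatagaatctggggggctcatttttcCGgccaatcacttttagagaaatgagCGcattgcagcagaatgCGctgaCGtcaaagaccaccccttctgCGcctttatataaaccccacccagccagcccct
The Dlk1 window holds 8 CG and the Meg3 window shown 10, against a median of 6 over 32851 promoters of the table, of which 43.0% and 37.8% hold as many or more. A second Meg3 window, at chr12:109545148-109545397, holds 0 CG. No methylation was measured in these samples. In all, 9 of the 10 genes had an entry (13 windows). The window with the most CG was that of Grb10 on the minus strand, with 40, a number reached by 1.31% of promoters. Motifs were searched on both strands in the same 250 bases. CACGTG (the E-box bound by MYC, a protein that FBXW7 marks for degradation) was in 6.02% of all promoters and in 1 member window, that of Plagl1. TGANTCA (the AP-1 motif bound by JUN) was in 6.75% and GCCATNTT (a YY1 motif, known from the Peg3 control region) in 3.91%, and neither was in a member window. These are descriptions of the letters, not of binding.

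H19 is a maternally expressed noncoding RNA that is abundant in the embryo and falls silent in most tissues after birth, and it is known as a restraint on growth and as the host of miR-675. It lies at chromosome 7, 142575529 to 142578143 on the minus strand (mm10, lincRNA, ENSMUSG00000000031.16). H19 read 47.7, 63.7 and 24.7 CPM in KO libraries, against 9.58, 10.1 and 4.53 CPM in WT libraries. The lowest KO library was above the highest WT library, and replicate 3 was the lowest within each genotype. The KO mean of 45.4 ± 19.6 CPM was 5.63-fold the WT mean of 8.06 ± 3.07 CPM (SD, n = 3 each), a log2 fold change of 2.49 ± 0.41 (SE; 95% interval 1.55 to 3.44; edgeR adjusted p = 0.00678). At least 277 fragments lay behind each value. Without WT replicate 3 the log2 fold change was 2.21 ± 0.38, and without KO replicate 3 it was 2.79 ± 0.36. With no count filter the adjusted p was 0.0633.

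The H19 locus carries the names H19 and Mir675, so its fragments can include the precursor of miR-675, whose mature forms are shown as the small RNAs made from the member that rose (RefSeq, GRCm38.p6, minus strand, chr7:142577112-142577133 and chr7:142577078-142577099; the seed, bases 2 to 8, is in capitals).
miR-675-5p: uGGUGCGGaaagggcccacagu
miR-675-3p: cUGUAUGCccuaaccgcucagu
The libraries did not measure mature microRNAs. The H19 locus also overlaps the predicted genes Gm27483 and Gm27786 on the opposite strand. Igf2, which encodes an embryonic growth factor and shares the H19 control region, was chosen after its values were seen; its locus also bears the name Gm49394. It read 11.2, 12.2 and 8.16 CPM in KO libraries, against 19.5, 21.7 and 7.90 CPM in WT libraries. Replicates 1 and 2 were lower in KO than in WT, WT replicate 3 was the lowest of all 6, and the log2 fold change was -0.64 ± 0.35 (SE; adjusted p = 0.260). H19 and Igf2 thus had fold changes of opposite sign, of which that of H19 passed.

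**Figure D2:**
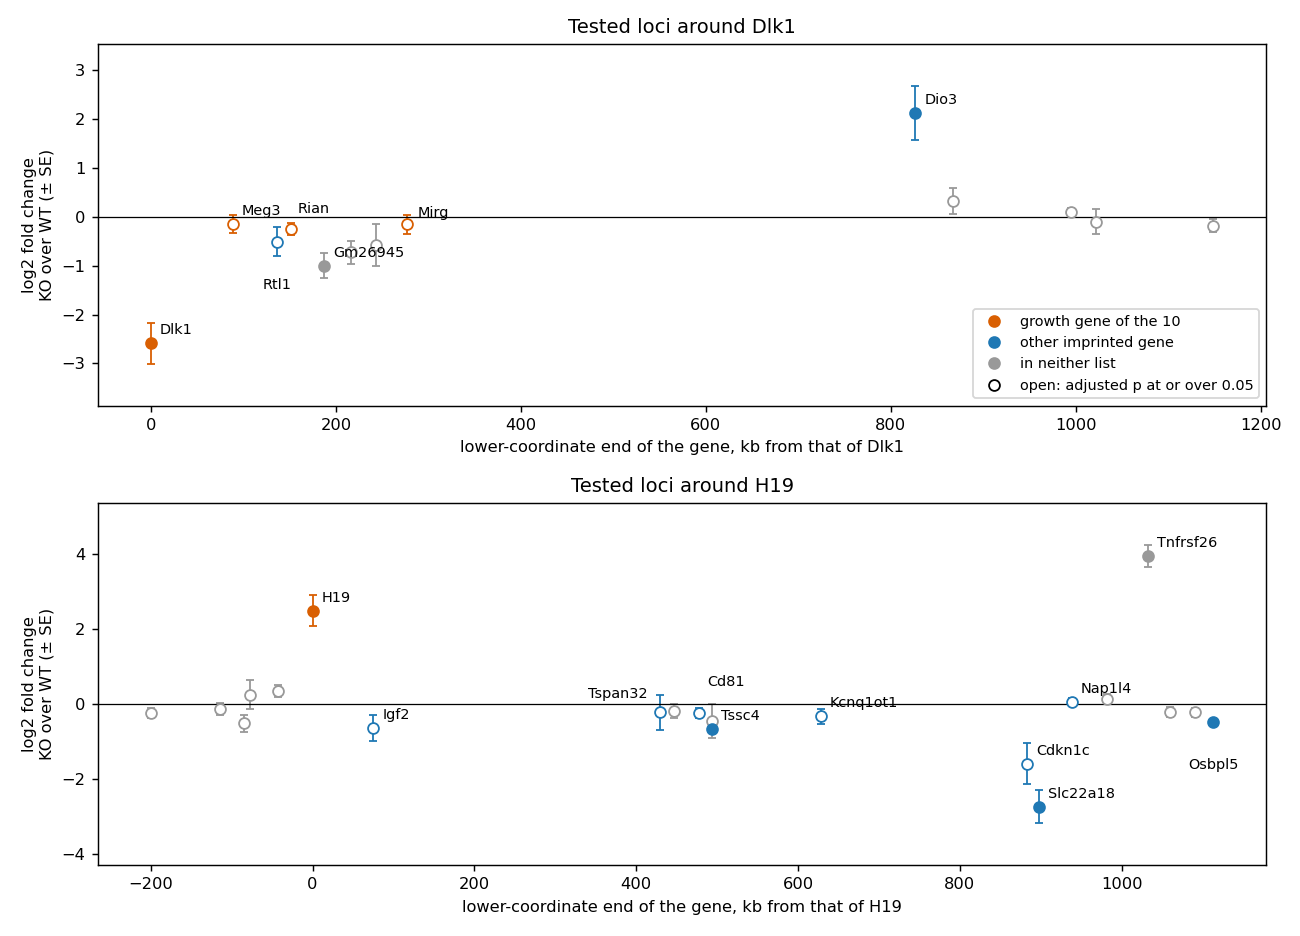
Log2 fold change (KO over WT) with its SE for each tested locus around Dlk1 (upper panel) and H19 (lower panel), by distance in kb between lower-coordinate ends; orange marks the 10 genes, blue other imprinted genes, grey loci in neither list, and filled points passed an adjusted p of 0.05. Dlk1 at -2.59 stands apart from Meg3, Rian and Mirg, which lie between -0.25 and -0.15, and H19 at 2.49 stands opposite Igf2 at -0.64.

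Around H19, the imprinted genes of the neighbouring Kcnq1 domain mostly had log2 fold changes below 0. Slc22a18, a membrane transporter gene that is maternally expressed, fell most, to 0.908 ± 0.550 CPM in KO, against 6.01 ± 1.17 CPM in WT (SD, n = 3 each; -2.72 ± 0.44 SE; adjusted p = 0.00647). Tssc4 (-0.67 ± 0.10; adjusted p = 0.00567) and the lipid-binding protein gene Osbpl5 (-0.48 ± 0.09; adjusted p = 0.0136) fell as well. Cdkn1c, a maternally expressed inhibitor of cyclin-dependent kinases that restrains embryonic growth, was chosen after its values were seen. It read 31.8, 41.0 and 26.3 CPM in KO libraries, against 134, 138 and 25.8 CPM in WT libraries, so that WT replicate 3 lay with the KO libraries (-1.58 ± 0.54; adjusted p = 0.0882). Kcnq1ot1, the paternally expressed RNA that silences this domain, was also chosen after its values were seen and stood at -0.32 ± 0.20 (adjusted p = 0.325). Tnfrsf26, a TNF receptor superfamily gene in neither imprinted list and chosen after its values were seen, rose to 4.48 ± 1.17 CPM in KO, against 0.288 ± 0.0609 CPM in WT (3.95 ± 0.29; adjusted p = 0.000283), while Tnfrsf22 and Tnfrsf23 beside it stood at -0.20 ± 0.14 and -0.22 ± 0.13. Around Dlk1, Dio3, the thyroid-hormone-inactivating deiodinase gene, was higher in KO but near absence, at 0.272 ± 0.0752 CPM in KO and 0.0606 ± 0.0416 CPM in WT, with as little as 1 fragment in a WT library (2.13 ± 0.55; adjusted p = 0.0378). Rtl1, a paternally expressed gene derived from a retrotransposon and chosen after its values were seen, stood at -0.51 ± 0.30 (adjusted p = 0.296), and Gm26945, a lincRNA that overlaps Rian and was likewise chosen, fell (-0.998 ± 0.26; adjusted p = 0.0376).

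Grb10 encodes an adaptor protein that binds the insulin and IGF1 receptors and restrains growth from the maternal copy. It lies at chromosome 11, 11930508 to 12038683 on the minus strand (mm10, protein coding, ENSMUSG00000020176.17). Grb10 read 583, 564 and 402 CPM in KO libraries, against 819, 823 and 861 CPM in WT libraries. All KO libraries were below all WT libraries, and KO replicate 3 was the lowest. The KO mean of 516 ± 99.6 CPM was 61.9% of the WT mean of 834 ± 23.2 CPM (SD, n = 3 each), a log2 fold change of -0.69 ± 0.15 (SE; 95% interval -1.04 to -0.34; edgeR adjusted p = 0.0208). The adjusted p was 0.068 without WT replicate 1 and 0.0673 without WT replicate 2. Igf2r, the maternally expressed receptor that clears IGF2 and was chosen after its values were seen, stood at 0.49 ± 0.21 (adjusted p = 0.150).

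Ndn encodes necdin, a MAGE-family protein known to hold back cell division, and is paternally expressed from the Prader-Willi domain. It lies at chromosome 7, 62346569 to 62350262 on the plus strand (mm10, protein coding, ENSMUSG00000033585.5) and overlaps Gm32061 on the opposite strand. Ndn read 131, 152 and 126 CPM in KO libraries, against 203, 208 and 199.6 CPM in WT libraries. The groups did not overlap, and replicate 3 did not stand apart in either genotype. The KO mean of 136 ± 13.9 CPM was 66.9% of the WT mean of 204 ± 4.12 CPM (SD, n = 3 each), a log2 fold change of -0.58 ± 0.10 (SE; 95% interval -0.81 to -0.35; edgeR adjusted p = 0.00852). Without KO replicate 1 the adjusted p was 0.0521. Other genes of the Prader-Willi and Angelman domain, chosen after their values were seen, stood at 0.02 ± 0.10 (Snrpn, a splicing factor gene), -0.44 ± 0.17 (Ube3a, a ubiquitin ligase gene) and 0.42 ± 0.20 (Mkrn3), and none of these 3 passed (edgeR adjusted p = 0.899, 0.110 and 0.206). The Snrpn locus also bears the names Gm38393, Snhg14, Snord107 and Snurf. Its FPKM read 24.4, 19.5 and 27.3 in KO libraries, against 34.1, 37.0 and 28.9 in WT libraries.

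Peg3, Plagl1 and Mest, the remaining paternally expressed members, did not pass, and in WT replicate 3 stood apart for each of them. Peg3 (chromosome 7, 6703892 to 6730431, minus strand, ENSMUSG00000002265.16), a zinc finger gene known for roles in growth and maternal behaviour, read 171, 169 and 99.2 CPM in KO libraries, against 348, 367 and 143 CPM in WT libraries. Replicates 1 and 2 of KO lay below those of WT, while WT replicate 3 lay between the KO values. The log2 fold change was -0.97 ± 0.36 (SE; 95% interval -1.80 to -0.13; adjusted p = 0.110), and without WT replicate 3 it was -1.29 ± 0.23 (adjusted p = 0.0111). Plagl1 (chromosome 10, 13060504 to 13131694, plus strand, ENSMUSG00000019817.18) encodes a zinc finger transcription factor known to regulate other imprinted genes. It read 37.8, 34.2 and 50.7 CPM in KO libraries, against 110, 126 and 44.6 CPM in WT libraries, and here KO replicate 3 was above, and WT replicate 3 below, the other libraries of its genotype. The log2 fold change of Plagl1 was -1.19 ± 0.35 (95% interval -2.01 to -0.38; adjusted p = 0.0573), and without WT replicate 3 it was -1.53 ± 0.17 (adjusted p = 0.00215).

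Mest (chromosome 6, 30723547 to 30748465, plus strand, ENSMUSG00000051855.15), a gene of the alpha/beta hydrolase fold known for fat and embryonic growth, read 15.4, 15.9 and 15.3 CPM in KO libraries, against 13.3, 15.8 and 3.45 CPM in WT libraries. The groups overlapped, and WT replicate 3 alone lay far below the other 5 libraries. The log2 fold change was 0.52 ± 0.46 (SE; 95% interval -0.54 to 1.58; adjusted p = 0.487), and without WT replicate 3 it was 0.09. Mest overlaps Copg2 and Gm44296, and Plagl1 overlaps Gm27741, on the opposite strand.

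Mest and the chromosome 12 RNAs are also hosts of microRNAs, 39 mature forms lying within 5 of the 10 genes in the RefSeq table: 26 in Mirg, 6 in Rian, 3 in Meg3, 2 in Mest and 2 in H19. They held 38 different seeds, so that a single seed was shared. The forms of miR-335 and miR-770, and the pair in Mirg with the shared seed GGUUGCC, are shown with the seed in capitals, as the products whose hosts did not pass the test.
miR-335-5p (Mest): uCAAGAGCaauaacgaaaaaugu
miR-335-3p (Mest): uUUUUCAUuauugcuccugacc
miR-770-5p (Meg3): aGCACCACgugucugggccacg
miR-770-3p (Meg3): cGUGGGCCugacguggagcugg
miR-453 (Mirg): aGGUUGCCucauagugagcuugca
miR-496a-5p (Mirg): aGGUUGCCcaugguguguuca
As for miR-675, the values above are those of the host loci and not of these microRNAs.

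The allele classes were compared as sums of FPKM in each library. The paternally expressed members summed to 102, 109 and 72.6 FPKM in KO libraries, against 293, 315 and 226 FPKM in WT libraries, and the groups did not overlap. The maternally expressed members summed to 584, 568 and 393 FPKM in KO libraries, against 637, 657 and 580 FPKM in WT libraries, where KO replicate 1 lay above WT replicate 3. The paternally expressed members made up 14.9, 16.1 and 15.6% of the total of both classes in KO libraries, against 31.5, 32.4 and 28.02% in WT libraries. The log2 ratio of paternal to maternal sums was 1.26 lower in KO than in WT.

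**Figure D3:**
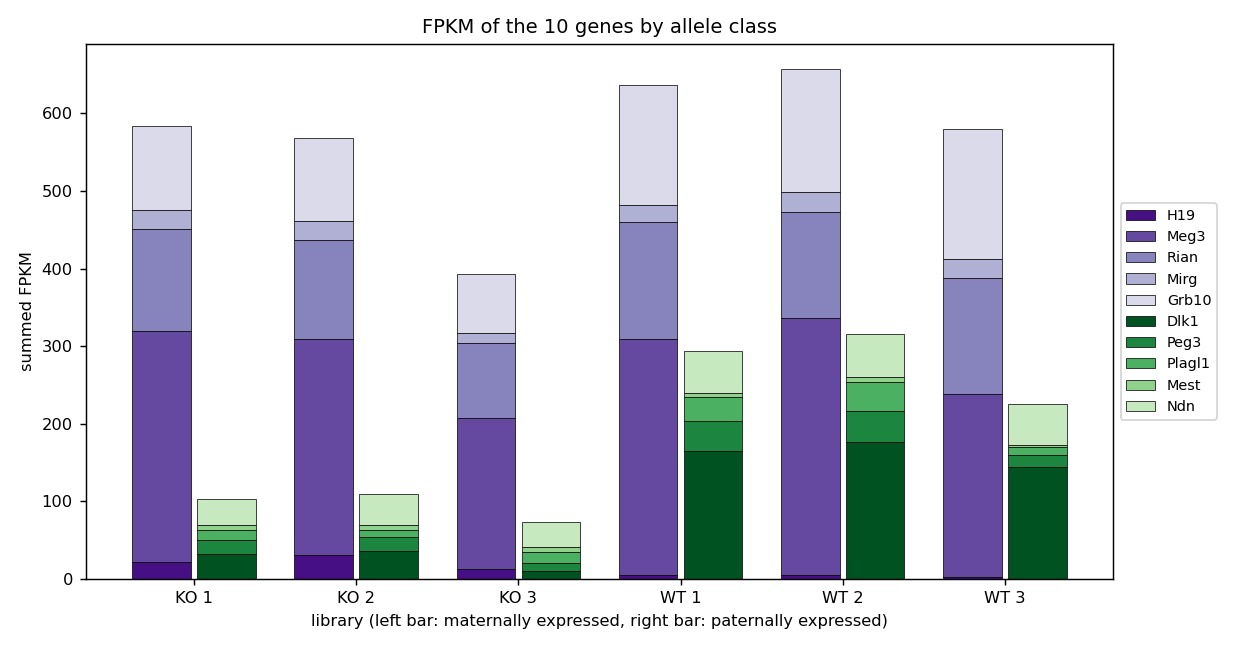
Summed FPKM of the 5 maternally expressed genes (left bar) and the 5 paternally expressed genes (right bar) in each library, KO libraries left of WT libraries, stacked by gene, with the axis from 0. The paternal bars reach 72.6 to 109 FPKM in KO and 226 to 315 FPKM in WT, and Dlk1 is the largest paternal block in each WT library.

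Much of that class difference went with Dlk1: the difference in log2 ratio was -0.43 with Dlk1 alone left out and -1.17 with Meg3 alone left out, both chosen after the data were seen. With the most abundant member of each class left out (Meg3 and Dlk1), the paternal share was 19.8, 20.2 and 24.0% in KO libraries, against 27.9, 30.0 and 19.3% in WT libraries, so that the groups overlapped, and the difference in log2 ratio came to -0.34. The overlap came from WT replicate 3, and without that library, also chosen after the data were seen, the difference was -0.59. By single genes, the maternal class had 1 member higher and 1 lower of 5 past the threshold, with a median log2 fold change of -0.15. The paternal class had 2 lower of 5 and none higher (also none higher at an unadjusted p under 0.05 in edgeR), with a median of -0.97. The classes thus did not move as blocks: H19 and Grb10, both maternal, moved in opposite directions, and Dlk1 and Mest, both paternal, had fold changes of opposite sign, that of Mest not passing.

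**Figure D4:**
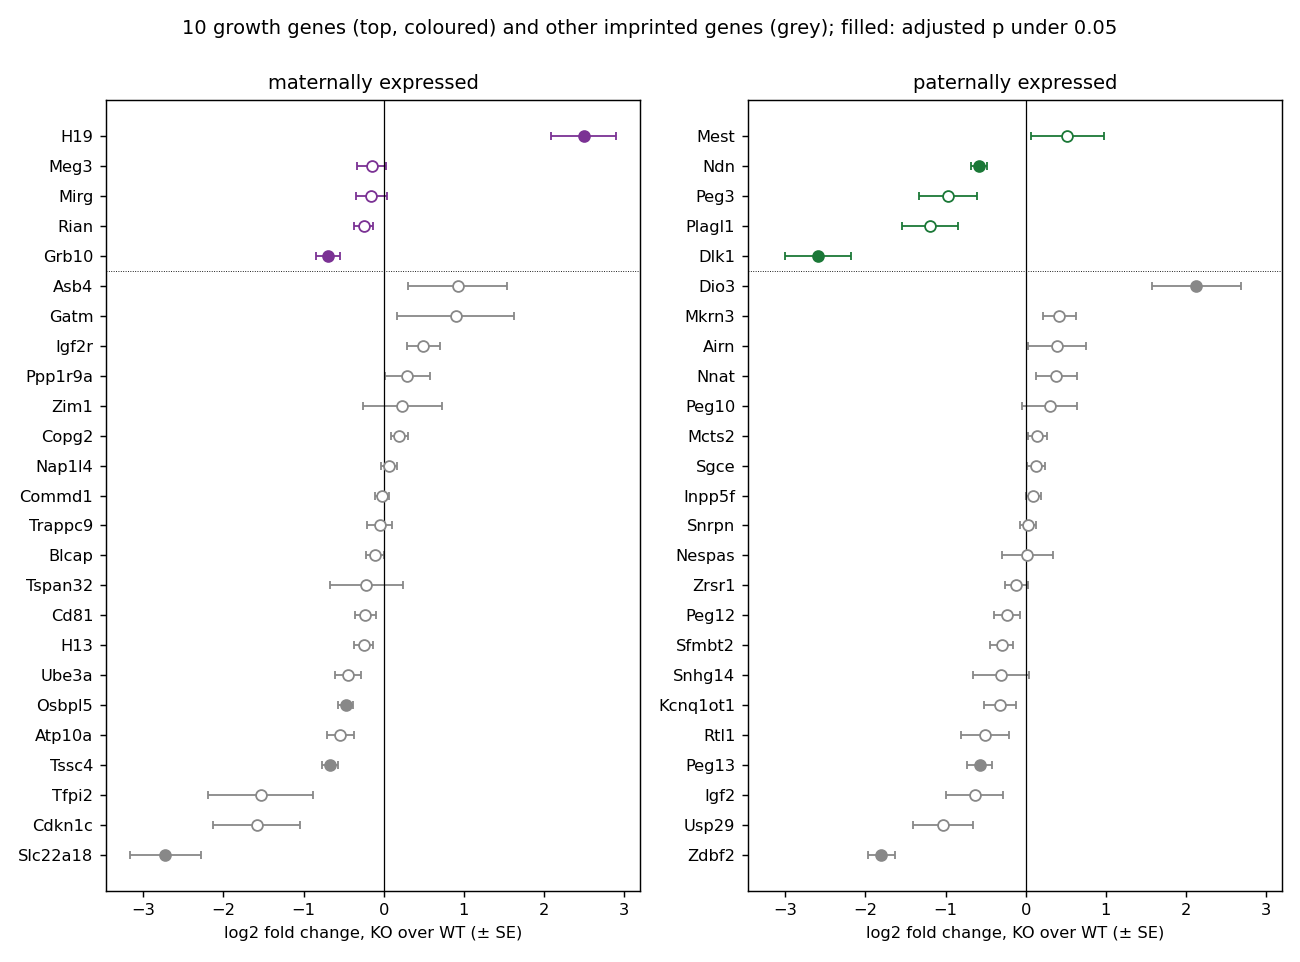
Log2 fold change (KO over WT) with its SE for the 10 genes (top, coloured) and the other tested imprinted genes (grey). Genes listed as maternally expressed are on the left and those listed as paternally expressed on the right. Filled points passed an adjusted p of 0.05. H19 at 2.49 and Dlk1 at -2.59 lie at the ends of the coloured points, and most grey points lie within 1 unit of 0.

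The third library of each genotype stood apart for several members. For each locus with at least 5 CPM, the level of replicate 3 was divided by the mean of replicates 1 and 2 of its genotype, and a ratio of 0.6 or less, a limit chosen after the values were seen, was counted. In KO, 3 of 10 members reached it, H19 at 0.444, Dlk1 at 0.298 and Peg3 at 0.584, against 2.8% of all 10964 loci with that level, whose median ratio was 0.980. In WT, 4 of 10 members reached it, H19 at 0.461, Peg3 at 0.400, Plagl1 at 0.378 and Mest at 0.237, against 3.36% of all 10918 loci, whose median was 0.998. H19 and Peg3 were low in replicate 3 of both genotypes, Dlk1 in KO and Mest and Plagl1 in WT, and Plagl1 in KO replicate 3 was at 1.41. The median over the members was 0.698 in KO and 0.786 in WT.

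**Figure D5:**
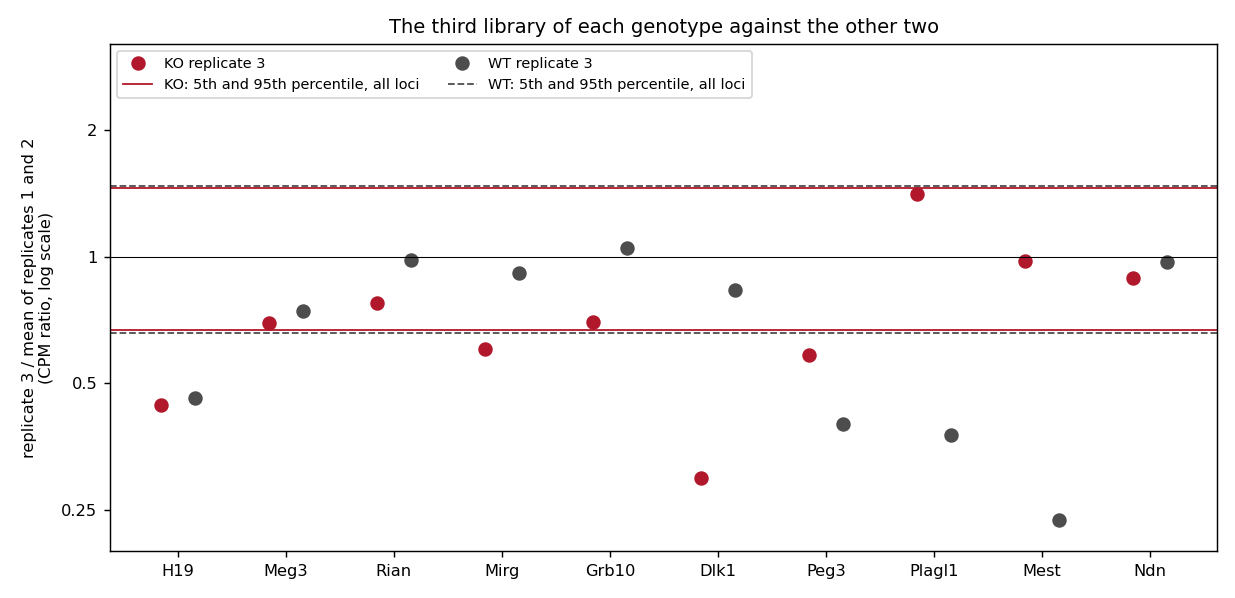
Level of replicate 3 divided by the mean of replicates 1 and 2 (CPM ratio, log axis) for each of the 10 genes, KO point left of the WT point, with lines at the 5th and 95th percentile of all loci with at least 5 CPM. H19 and Peg3 lie below the lower line in both genotypes, Dlk1 and Mirg in KO, and Plagl1 and Mest in WT.

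The same count over other imprinted genes gave 1 of 30 in KO (Zim1 at 0.323) and 7 of 32 in WT, which were Cdkn1c at 0.190, Airn at 0.365, Zim1 at 0.384, Igf2 at 0.384, Tfpi2 at 0.419, Ppp1r9a at 0.461 and Rtl1 at 0.486, all chosen by that limit. The median ratio over the other imprinted genes was 0.90 in both genotypes, and their highest ratios were 2.50 in KO and 1.36 in WT. With replicate 3 of both genotypes left out, 6 of 10 members passed, with Peg3 (-1.07) and Plagl1 (-1.71) joining, against 41.3% of all tested loci. Without WT replicate 3 alone, the same 6 of 10 passed, against 18.5% of all loci, and without KO replicate 3 alone 4 of 10 passed, against 19.1%. The cause of the low values in replicate 3 was not tested.

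Of a wider list of 66 imprinted genes, 41 were tested apart from the members, 16 were below the filter, 6 had no locus of that name, 2 lay in a member's locus and 1 shared a locus with another entry. Among the 41, 1 rose and 5 fell (14.6%, against 16.1% of all loci), a share near the background, and the median log2 fold change was -0.12. Zdbf2, a paternally expressed zinc finger gene known for growth after birth, read 8.61, 6.90 and 6.54 CPM in KO libraries, against 26.8, 28.9 and 21.1 CPM in WT libraries, without overlap (-1.80 ± 0.17 SE; adjusted p = 0.00077). Peg13, a paternally expressed noncoding RNA, fell as well (-0.58 ± 0.15; adjusted p = 0.0406), beside the Kcnq1-domain genes and Dio3 given above. Of the 20 tested genes listed as maternally expressed 3 fell, and of the 20 listed as paternally expressed 1 rose and 2 fell. Whether each of these genes was imprinted in these fibroblasts was not measured.

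Of 30 genes known to set or keep imprinting marks, 28 were tested, 1 rose and 1 fell (7.1%, against 16.1% of all loci). Tet1, an enzyme that oxidises methylated cytosine, fell to 9.28 ± 0.889 CPM in KO, against 19.5 ± 4.34 CPM in WT (SD, n = 3 each; -1.07 ± 0.18 SE; adjusted p = 0.0083). Dnmt3l, the cofactor of the germ-line methyltransferases, was higher at a low level, 2.42 ± 0.541 CPM in KO and 1.32 ± 0.221 CPM in WT (0.88 ± 0.24; adjusted p = 0.0476). The most abundant of them, the co-repressor Trim28 (0.16 ± 0.13) and the histone methyltransferase Ehmt2 (-0.06 ± 0.12), did not pass. The counts for this list changed with single libraries, from 1 to 5 as each was left out, and limma on FPKM called none (0 members, 2 at an unadjusted p under 0.05, both lower in KO).

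The nearest tested coding genes outside both imprinted lists, 1 on each side of the 7 domains that hold the members, served as a comparison. Being outside these lists does not show that a neighbour is not imprinted, and this was not checked. Of these 14 neighbours, 2 passed the threshold, a share near the 16.1% of all loci, and their median log2 fold change was -0.14, against 0.007 for all loci. Sf3b5, a splicing factor gene on the lower side of Plagl1, fell to 29.4 ± 4.95 CPM in KO, against 47.2 ± 6.53 CPM in WT (-0.68 ± 0.15; adjusted p = 0.0227). Beside the members that passed, the neighbours stood at 0.36 ± 0.16 (Mrpl23) and -0.46 ± 0.45 (Trpm5) beside H19, at -0.64 ± 0.29 (Begain) and 0.09 ± 0.09 (Ppp2r5c) beside the Dlk1 domain, at 0.72 ± 0.31 (Ddc) and -1.13 ± 0.36 (Cobl) beside Grb10 and at -0.60 ± 0.31 (Chrna7) beyond Ndn, none of which passed. The remaining neighbours, Zfp28, Zfp954, Cep41, Mkln1 and Ltv1, lay between -0.39 and 0.10 and did not pass.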

How the data were processed

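The authors deposited estimated counts (expected fragments per locus) and FPKM, both laid out as Cufflinks tracking tables per the file headers. Cufflinks 2.2.1, TopHat2 2.1.1, deepTools, SAMtools 1.5 and the build mm10 are named per the submitters' processing notes; annotation and strand setting are not given in the sources used here. In each library 89.0 to 89.6% of the deposited estimated counts up to 1000 were whole multiples of 1 step (tolerance 0.05), so a factor had been applied. Of 53323 loci, 1317 unnamed ones (at most 3.13e-05% of a library) and 9 named ones marked HIDATA were left out; 55 marked FAIL were kept.

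The design assumed counts; the expected counts were rounded and tested with edgeR 4.0.16 (R 4.3.3; filterByExpr, TMM, robust quasi-likelihood F test, genotype only), Benjamini-Hochberg over 16787 loci, threshold 0.05. CPM uses TMM-scaled library sizes; SE is the log2 fold change over the root of F. PCR copies were not marked by molecular identifiers, so the true counting error may be larger. The code was tested on simulated data. Positions came from GENCODE M21 (same build) and sequences from RefSeq (GRCm38.p6).

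The 10 genes and the lists were chosen with earlier results of these data known. Named were the members, list members past the threshold (up to 12 by adjusted p, otherwise with the 2 most abundant), the nearest neighbours outside the lists, and Fbxw7; any other gene is marked as chosen later, from its values. Alternatives were other scalings and count filters, DESeq2 1.42.0, a replicate block, libraries left out, and limma 3.58.1 on log2(FPKM + 1 or + 0.1). Values of 1 neighbour and 1 marker that this rule would name are not reported here.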

Additional observations from a re-analysis of the deposited data

How the results depend on the processing

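Over 18 alternatives, the fold changes of the 10 genes kept their sign except for Mirg, at 0.047 without KO replicate 3 (-0.28 to 0.047 as each library was left out) and 0.010 with replicate 3 of both genotypes left out. H19 ranged from 2.17 to 2.79 and Dlk1 from -2.89 to -2.21, each past the threshold in 17 alternatives; the adjusted p was 0.0633 (H19) and 0.0706 (Dlk1) with no count filter. Ndn passed in 17 and Grb10 in 15, with 0.0585 for Grb10 by limma without a filter. Peg3 passed in 4 (adjusted p = 0.0214 by DESeq2's Wald test; range over alternatives 8.04e-09 to 0.350) and Plagl1 in 3 (adjusted p = 0.00253 by DESeq2; range 2.37e-10 to 0.310); Meg3, Rian, Mirg and Mest passed in none. The members past the threshold numbered 4, but 2 with no count filter, 6 by DESeq2 (21.7% of all loci) and 3 to 6 as each library was left out. All loci past it numbered 2705, 1169 to 3282 as each library was left out, 6993 without replicate 3 of both genotypes, and 1562, 1615 and 1182 by limma on log2(FPKM + 1), log2(FPKM + 0.1) and log2(FPKM + 1) with no filter. Other imprinted genes numbered 6, 3 to 10 as each library was left out and 19 without replicate 3 of both; imprint keepers numbered 2, 4 with library size only, 1 to 5 as each library was left out, 13 without replicate 3 of both and 0 in each of the 3 limma fits (2 at an unadjusted p under 0.05 in each). The class difference of -1.26 was -0.34 without the most abundant members (-0.59 with WT replicate 3 not used either), -0.43 without Dlk1 alone, -1.17 without Meg3 alone and -1.36 to -1.20 as each library was left out. Library size only moved the median of all loci from 0.007 to 0.105 and the share of higher calls from 49.8% to 65.7%; it was 37.6% by limma at a mean FPKM of at least 1. The causes of these changes were not tested, and the fits also differed in the libraries or loci that entered them.

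The labels do not say whether replicate numbers pair the libraries, and the values do not settle it. Deviations of same-numbered libraries correlated at 0.061, 0.200 and 0.114 over 11008 genes, and those of differently numbered ones at -0.211 to 0.148. Each WT library correlated best with the KO library of its number, whereas KO replicate 1 correlated best with WT replicate 2 (0.148). With the replicate block, 2356 loci and 5 members passed, Peg3 joining (adjusted p = 0.0176), with 6 other imprinted genes and 3 keepers. Depth limits Dio3, with 1 to 6 fragments in WT libraries.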
